A study of Mus musculus with 5 samples.

Results

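The genes described here encode the proteins of the cytosolic ribosome. They were chosen as the protein-coding genes of the GENCODE M21 annotation whose symbol is Rpl, Rps, Rplp or Rpsa with a number and, at most, a closing a, l or x. The rule gave 80 genes among the 47729 in the table, 49 of the large and 31 of the small ribosomal subunit. In 76 of them (45 large, 31 small) the counts averaged 10 or more over the mice. The other 4 were Rpl3l, Rpl10l, Rpl24 and Rpl39l. Another 3 genes whose symbols match the pattern (Rpl6l, Rpl32l and Rps4l) are not annotated as protein-coding and were left out. The rule also leaves out canonical ribosomal genes with other symbols, such as Rps3a1 and Fau, which are given further on.

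The libraries came from total RNA of the brains of 5 male C57BL/6 mice, all 30 months old, numbered 7, 8, 9, 10 and 11 in the labels and prepared with an Illumina multiplexed mRNA kit. No treatment, mutation or younger group is named, so there was no contrast between groups, and the question was how high each gene was and how far the mice differed. The labels give each sample a number and say nothing of litters, dissection or preparation dates. Every SD over mice below therefore measures the spread between these samples, part of which may be technical. Each p-value rests on that spread, but tests what the named test compares. In bulk tissue, fewer cells of a type and less RNA per cell cannot be told apart.

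Ribosomal proteins assemble with ribosomal RNA in the nucleolus into a small subunit, which reads the mRNA, and a large subunit, which forms the peptide bond. Most are made in equal numbers, and their mRNAs typically begin with a 5′ terminal oligopyrimidine (TOP) tract, through which growth signals set their translation. In mammalian genomes most of these genes have many processed pseudogenes, copies made from their mRNA, so that short reads often match several places. In the brain, ribosomal protein mRNAs occur in every cell type and also in neuronal dendrites and axons.

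The start sites in RefSeq (build GRCm38.p6) were matched for 60 of the 80 genes. A run of at least 7 C or T bases within 5 bases of the start was present in 24 of these 60 promoters (40%), and in 4630 of all 32851 mouse promoters of the table (14.1%). The promoters below are those of genes on which later results turn. Each shows the gene strand 5′ to 3′, from 40 bases before the start to 20 bases from it onward, and capitals mark such a run.
Rpl18 (chr7:45718031-45718090, plus strand): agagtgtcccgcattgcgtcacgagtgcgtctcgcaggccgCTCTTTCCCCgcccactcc
Rpl38 (chr11:114668540-114668599, plus strand): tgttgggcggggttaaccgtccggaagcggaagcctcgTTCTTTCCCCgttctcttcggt
Rps9 (chr7:3704001-3704060, plus strand): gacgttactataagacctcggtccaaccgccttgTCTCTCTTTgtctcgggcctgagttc
Rps27 (chr3:90213629-90213688, minus strand): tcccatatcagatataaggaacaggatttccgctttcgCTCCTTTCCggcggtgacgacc
Rpl5 (chr5:107900488-107900547, plus strand): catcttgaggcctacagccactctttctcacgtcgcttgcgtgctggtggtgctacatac
Rpl26 (chr11:68901526-68901585, plus strand): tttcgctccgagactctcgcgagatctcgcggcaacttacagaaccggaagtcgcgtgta
Rpl5 and Rpl26 had no such run within 5 bases of the start; Rpl5 has a C and T stretch further upstream, which the limit leaves unmarked. The result depends on the annotated start. Over the 300 bases of each promoter, on both strands, CCGGAAG, letters bound by ETS-family factors, was found in 23 of the 60 (38.3%) and in 8.86% of all promoters. GGGCGG, the core of the GC box, was found in 35 of the 60 (58.3%) against 35.7% of all promoters, and CCATNTT, the core of the YY1 motif, in 18 (30.0%) against 16.1%. TATAA on the gene strand between 40 and 15 bases before the start was found in 4 of the 60 (6.67%) against 3.56%.

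The coding sequences differ in base composition, from 44.9 to 61.6% GC among the 76 genes, and in length, from 75 bases in Rpl41 to 1257 in Rpl4. The first 60 coding bases of 4 genes are shown because the mice differed along this composition (GRCm38, from the M21 transcripts, 5′ to 3′, with G and C in capitals). Rpl5 (chromosome 5, plus strand, 46.0% GC over 891 coding bases) and Rpl7 (chromosome 1, minus strand, 47.4% over 810) are at the AT-rich end. Rpl18 (chromosome 7, plus strand, 59.2% over 564) and Rplp1 (chromosome 9, minus strand, 58.2% over 342) are at the GC-rich end.
Rpl5: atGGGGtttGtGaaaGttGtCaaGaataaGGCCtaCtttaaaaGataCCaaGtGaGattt
Rpl7: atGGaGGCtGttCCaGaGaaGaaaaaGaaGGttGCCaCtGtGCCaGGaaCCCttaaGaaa
Rpl18: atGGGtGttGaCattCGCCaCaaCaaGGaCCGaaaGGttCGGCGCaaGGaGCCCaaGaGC
Rplp1: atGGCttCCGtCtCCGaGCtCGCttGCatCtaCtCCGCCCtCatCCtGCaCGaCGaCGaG

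The libraries held between 15392006 and 18723390 counts on genes, of which mitochondrially encoded genes took 3.88 to 4.96%. The brain label was checked by marker genes: neuronal markers summed to between 929 and 1059 RPKM (reads per length of exon and library total) over the mice, astrocyte markers to between 621 and 748, oligodendrocyte markers to between 585 and 821, and microglial markers to between 118 and 131. Markers of cerebellar granule cells summed to between 0.0659 and 11.1 RPKM, those of choroid plexus to between 338 and 524, and those of blood to between 59.0 and 192. Liver markers did not exceed 0.350 RPKM in sum.

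The 80 genes together held a small and uneven share of the counts. The share was 0.553% in mouse 7, 0.524% in mouse 8, 0.423% in mouse 9, 0.401% in mouse 10 and 0.529% in mouse 11 (0.486% ± 0.0692, SD, n = 5). Mice 9 and 10 were low, and the other 3 lay close together. The 95% Wilson intervals, which cover counting error only, were narrow beside these differences, from 0.549 to 0.557% in mouse 7 and from 0.397 to 0.404% in mouse 10. The large-subunit genes held 0.284% ± 0.0437 and the small-subunit genes 0.202% ± 0.0267 of all counts. The 5 genes with the most counts, Rps3, Rpl3, Rpl4, Rps14 and Rpl8, held 19.8% ± 1.53 of the ribosomal protein counts.

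Levels spanned a 57.4-fold range ± 17.6 (SD, n = 5) between the highest and the lowest of the 76 genes within a mouse. The mean RPKM over the mice had a median of 33.4 over these genes (quartiles 19.0 and 53.4), and 74 of the 76 were above 5.85, the median of the 14242 protein-coding genes that reached the same count. Rps15, a protein near the decoding site, was highest: its RPKM was 225 in mouse 7, 182 in mouse 8, 143 in mouse 9, 160 in mouse 10 and 263 in mouse 11. Rplp1, a stalk protein, followed with 197, 179, 123, 132 and 304 RPKM in mice 7 to 11, and Rpl8, which lies near the peptidyl transferase centre, had 159, 153, 119, 146 and 246. All 3 had their highest value in mouse 11 and their lowest in mouse 9. Rpl13a averaged 132 ± 39.0 RPKM, Rps12 128 ± 25.9, and Rps26 113 ± 19.9 (SD, n = 5 each).

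**Figure D1:**
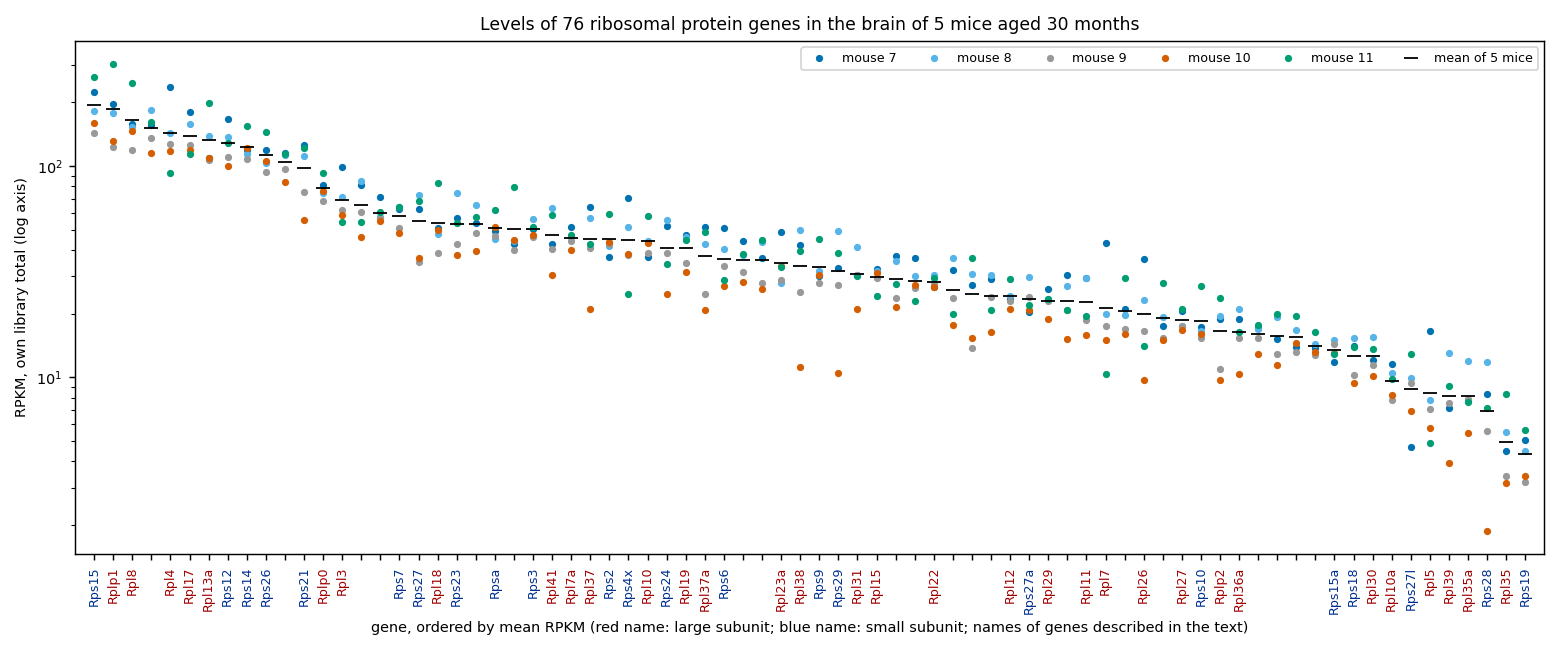
RPKM (log axis, recomputed with each library's own total) of the 76 ribosomal protein genes whose counts averaged 10 or more, ordered by mean, with a point for each of the 5 mice and a dash for the mean; names are printed for genes described in the text. Means run from 194 (Rps15) to 4.35 (Rps19), and the points of neighbouring genes overlap throughout.

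At the low end Rps19, needed for maturation of the small subunit, had 5.04, 4.47, 3.19, 3.41 and 5.64 RPKM in mice 7 to 11. Rpl35 had 4.46, 5.50, 3.39, 3.16 and 8.31. Rps28, a protein at the mRNA exit, had 8.35, 11.8, 5.58, 1.87 and 7.15. The ranges of Rps19 and Rpl35 over the mice overlapped, and Rps28 in mouse 10 lay under both. Rpl35a averaged 8.14 ± 2.35 RPKM, Rpl39 8.17 ± 3.34, Rpl5 8.40 ± 4.69, Rps27l 8.75 ± 3.10 and Rpl10a 9.55 ± 1.54. Rpl30 and Rps18 both averaged 12.6 RPKM (± 2.03 for Rpl30, ± 2.62 for Rps18). Of the 75 neighbouring pairs in the order of the 76 genes, 0 had ranges over the mice that did not overlap, so the order is not resolved between neighbours.

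The order also rests on the gene length used. The lengths implied by the deposited RPKM, used for the RPKM given so far, were within 1% of the union of the M21 exons for 52 of the 79 members that had one, and the annotation behind them is not given in the sources used here. For some members they were far longer than the mRNA. For Rps19 the implied length was 4685 bases and the shortest principal transcript in M21 was 633 bases, and for Rps15a the lengths were 6270 and 640. For Rpl18 the implied length, 679 bases, was that of this transcript, and the M21 exons span 4043 bases. Over transcript length, Rps19 averaged 32.2 RPKM in place of 4.35 and Rps15a 131 in place of 13.4. On that scale Rps14 was highest at 286, followed by Rps15 at 245, Rps21 at 202, Rplp1 at 185 and Rpl22 at 173, and the lowest was Rpl35 at 6.51. The counts are of whole genes, so reads in exons outside the chosen transcript raise a level on that scale. How far they do so was not tested. The median over the 76 genes became 70.5 RPKM (quartiles 48.4 and 112). The 2 scales ranked the genes with a Spearman correlation of 0.64 (across 76 genes, which share libraries and are not independent replicates).

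Large-subunit genes had lower median levels than small-subunit genes in every mouse with the implied lengths. The median RPKM of the 45 large-subunit genes was 36.4, 30.7, 25.4, 20.99 and 29.5 in mice 7 to 11, against 49.0, 45.1, 35.0, 30.4 and 44.6 for the 31 small-subunit genes. The difference of the medians (large minus small) on the log2(RPKM + 1) scale was -0.50 ± 0.0659 (SD, n = 5). As a difference of means over genes it was -0.24 ± 0.0541, and with the M21 exon length the difference of medians was -0.18 ± 0.148. Over transcript length the medians were 69.8 ± 15.97 for the large and 69.5 ± 7.30 for the small subunit, and the difference was -0.017 ± 0.197. The size of the difference thus changed with the length and with the summary used, and no test was made of it.

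The stalk proteins recruit the translation factors that drive elongation. Rplp0, which anchors the stalk, had 81.2, 74.2, 68.1, 76.3 and 92.8 RPKM in mice 7 to 11. Rplp2, the partner of Rplp1, had 18.9, 19.4, 10.9, 9.69 and 23.8, and Rpl12 at the base of the stalk averaged 24.2 ± 3.03. Rplp1 and Rplp2 were both lowest in mice 9 and 10 and highest in mouse 11, while Rplp0 and Rpl12 stayed within a narrower range. Per transcript length the 4 averaged 96.0 (Rplp0), 185 (Rplp1), 81.5 (Rplp2) and 70.1 (Rpl12).

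Rpl5 and Rpl11 bind the 5S ribosomal RNA and, outside the ribosome, the p53 regulator Mdm2. Rpl5 had 16.5 RPKM in mouse 7, 7.79 in mouse 8, 7.07 in mouse 9, 5.72 in mouse 10 and 4.88 in mouse 11. Rpl11 had 29.6, 29.4, 18.7, 15.9 and 19.4 in the same order. Mouse 7 stood apart for Rpl5, while mice 7 and 8 were both high for Rpl11. Of the exon bases of Rpl5, 26.7% overlap exons of Fam69a on the opposite strand or Snord21 on the same strand, and the strand setting of the counting is not given in the sources used here.

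Around the exit of the peptide tunnel, where new chains leave the large subunit, the genes differed in how even they were. Rpl22 was the most even of the 76, with 26.8, 30.4, 27.7, 26.8 and 29.5 RPKM in mice 7 to 11. Rpl26 ran from 36.4 RPKM in mouse 7 to 9.67 in mouse 10, with 23.1, 16.5 and 14.02 in mice 8, 9 and 11. Rpl23a, a docking site of the signal recognition particle, had 48.9 RPKM in mouse 7 and between 27.9 and 33.7 in the other 4. Mouse 7 was highest for Rpl23a and Rpl26, but 62.3% of the exon bases of Rpl23a overlap Tlcd1 on the opposite strand or Snord42b on the same strand. Rpl39, which lines the tunnel, had 7.18, 13.1, 7.57, 3.91 and 9.12 RPKM in mice 7 to 11. Rpl31 averaged 30.8 ± 7.20, Rpl17 139 ± 28.9 and Rpl19 40.8 ± 7.23.

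On the small subunit, Rps3, which lines the mRNA entry, was among the most even, with 50.5, 55.9, 46.2, 47.1 and 51.2 RPKM in mice 7 to 11. Rps2, also at the entry, averaged 44.9 ± 8.35, and Rps23, which acts in decoding fidelity, 53.2 ± 14.2. At the mRNA exit, Rps14 averaged 123 ± 18.7 RPKM and Rps26 113 ± 19.9, while Rps28 was lower and more uneven, as given above. Rps27a, which is made as a fusion with ubiquitin, averaged 23.4 ± 3.802. Rps6, the substrate of S6 kinase, had 50.7, 40.6, 33.4, 27.0 and 29.0 RPKM, highest in mouse 7. Rpsa, also known as a laminin receptor, averaged 50.7 ± 6.55.

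Variation between the mice was tested over the 16318 genes whose counts averaged 10 or more, by comparing the dispersion of each gene in an edgeR quasi-likelihood fit with that of genes of like level. After Benjamini-Hochberg adjustment over all genes, 0 of the 76 ribosomal protein genes and 0% of all genes passed 0.05, and the lowest adjusted p among the 76 was 0.970. The reference distribution was fitted to these same genes, so the shares of all genes that pass follow largely from the fit. Those shares do not gauge how far the mice differed. At an unadjusted p under 0.05 there were 14 of the 76 (18.4%), against 814 of all genes (4.99%). They were Rpl4, Rpl5, Rpl7, Rpl26, Rpl37, Rpl37a, Rpl38, Rplp1 and Rplp2 of the large subunit and Rps4x, Rps21, Rps27, Rps28 and Rps29 of the small. The count rested on single libraries: it was 5 of 77 (6.49%) without mouse 10, against 5.05% of all genes, and 32 of 77 (41.6%) without mouse 11, against 6.38%. With each library's trend along GC content and length removed it was 27 of 76 (35.5%), against 5.39% of all genes. With no filter beyond 1 count, 6 of 79 genes passed after adjustment (Rpl5, Rpl7, Rpl26, Rpl38, Rps28 and Rps29), against 0.812% of all genes, and 23 of 79 had an unadjusted p under 0.05, against 6.77%.

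The 14 genes did not share a single order of the mice. Rpl7, a protein of the large subunit, had the lowest p of the 76. It had 43.2 RPKM in mouse 7, 19.9 in mouse 8, 17.6 in mouse 9, 14.9 in mouse 10 and 10.4 in mouse 11 (unadjusted p = 0.00607 in the edgeR fit). Rpl4, a core protein of the tunnel wall, had 237, 144, 126, 118 and 92.5 RPKM, and Rps4x, the X-linked copy of the small-subunit protein S4, had 70.8, 51.2, 38.1, 38.5 and 24.8. These genes and Rpl5 peaked in mouse 7 and were lowest in mouse 11, and Rpl26 peaked in mouse 7 with its lowest value in mouse 10. Rpl3, a protein near the catalytic centre, also had its highest value in mouse 7, with 99.4, 71.3, 62.0, 58.8 and 54.1 RPKM, but was not among the 14.

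Among the 37 genes with a coding length under the median of 453 bases, 28 were lowest in mouse 10 and 17 highest in mouse 8, against 16 and 4 of the 39 longer genes. Rps29, a zinc-binding protein, had 32.8 RPKM in mouse 7, 49.4 in mouse 8, 27.3 in mouse 9, 10.5 in mouse 10 and 38.6 in mouse 11 (unadjusted p = 0.0110 in the edgeR fit). Rpl38, which in mouse embryos is needed for the patterning of the axial skeleton, had 42.4, 49.7, 25.4, 11.2 and 39.5 RPKM, and its p in that fit was 0.0119. Rps28 had the largest SD of log2 CPM (counts scaled to the library total) of the 76 and an unadjusted p of 0.0126 in the edgeR fit. Rps28, Rps29 and Rpl38 had their lowest value in mouse 10 and their highest in mouse 8, and their coding sequences have 207, 168 and 210 bases. Rpl37, with 291 coding bases, was also lowest in mouse 10 (63.6, 56.9, 40.9, 20.99 and 42.5 RPKM), but highest in mouse 7.

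Of the 38 genes with a GC content at or above the median of 52.8%, 23 (60.5%) were highest in mouse 11, against 8 (21.1%) of the 38 below it. Among all genes tested the share was 35.8%. After removal of the GC and length trends the counts were 15 (39.5%) and 9 (23.7%), against 26.5% of all genes. The 3 genes given next were chosen because mouse 11 lay far from the other mice in them. Rpl18 had 82.7 RPKM in mouse 11, against 51.0, 47.6, 38.8 and 49.6 in mice 7 to 10. Rps9 had 45.2 in mouse 11, against 30.2, 31.8, 28.0 and 30.4, and Rps10 had 27.1, against 17.4, 16.5, 15.3 and 15.99. In these 3 genes the 4 other mice lay close together and mouse 11 stood above them. Their unadjusted p-values in the edgeR fit were 0.101 (Rpl18), 0.245 (Rps9) and 0.172 (Rps10).

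**Figure D2:**
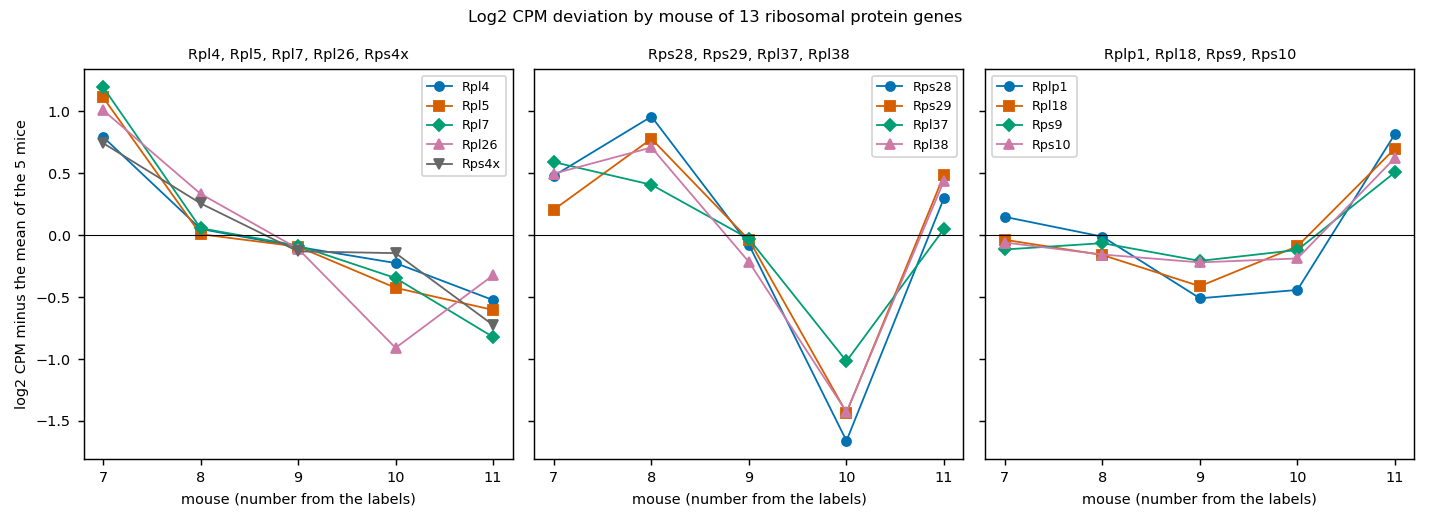
Log2 CPM of 13 ribosomal protein genes minus the gene's mean over the 5 mice, by mouse, in panels of 5, 4 and 4 genes. The first panel shows genes highest in mouse 7, the second genes lowest in mouse 10 (Rps28 reaches -1.66) and the third genes highest in mouse 11 (Rplp1 reaches 0.82).

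Across the 76 genes, the deviation of log2 CPM from the mean of the mice followed the GC content of the coding sequence in mouse 11 (Spearman rho = 0.63) and, the other way, in mouse 9 (-0.48) and mouse 8 (-0.43). It followed coding length in mouse 10 (0.62) and, the other way, in mouse 8 (-0.58). These are descriptions over genes that share libraries, depth and base composition. The libraries differed along GC content over 12595 genes as well: per 10 percentage points of GC, the deviation of log2 CPM changed by -0.29 in mouse 7, -0.15 in mouse 8, -0.12 in mouse 9, 0.01 in mouse 10 and 0.55 in mouse 11. Per unit of log2 implied gene length, the change over the same genes was 0.05, -0.02, 0.03, 0.03 and -0.08 in mice 7 to 11. Once the GC and length trends had been removed from each library, the correlation with GC was recomputed among the 76 genes. It was 0.16 in mouse 11, -0.15 in mouse 9, -0.24 in mouse 8 and 0.21 in mouse 10. The correlation with coding length was then 0.55 in mouse 10, -0.56 in mouse 8 and -0.38 in mouse 11. The trends removed ran along the mean GC of each gene's transcripts and the implied gene length. A trend along coding length itself was not removed.

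**Figure D3:**
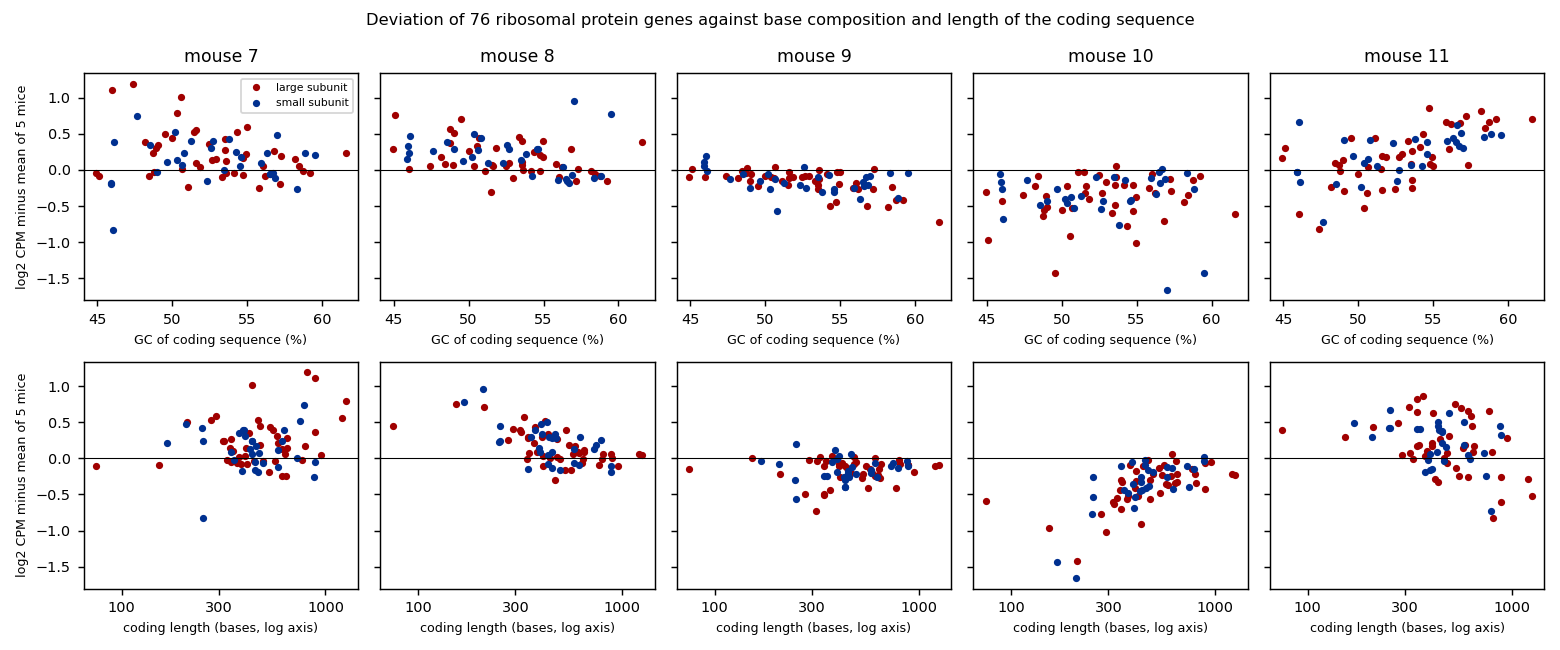
Deviation of log2 CPM from the gene's mean over the mice for the 76 ribosomal protein genes (points, red for the large and blue for the small subunit), against GC content of the coding sequence (top) and coding length on a log axis (bottom), with a panel for each mouse. In mouse 11 the points climb with GC content, and in mouse 10 the shortest coding sequences lie lowest.

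Taken over the 76 genes, the mean deviation of log2 CPM was 0.19 in mouse 7, 0.18 in mouse 8, -0.16 in mouse 9, -0.38 in mouse 10 and 0.19 in mouse 11 (SD of these 5 means 0.26). Over all 16318 genes tested the means lay between -0.03 and 0.07 (SD 0.04) and the medians between -0.01 and 0.01. The library scaling (TMM) places most genes near 0, so these all-gene values follow from it. They do not gauge the spread of a list of 76 genes. The highest value of a gene fell in mouse 7 for 24 genes, in mouse 8 for 21 and in mouse 11 for 31, and in mice 9 and 10 for 0. As shares of the 76 these were 31.6% in mouse 7, 27.6% in mouse 8 and 40.8% in mouse 11, against 26.3%, 11.7% and 35.8% of all genes tested, so the shares for mice 7 and 11 lay near those of all genes. The lowest fell in mouse 10 for 44 genes (57.9%, against 12.8% of all genes) and in mouse 9 for 17 (22.4%, against 15.4%). After removal of the GC and length trends, the means were 0.22, 0.16, -0.09, -0.32 and 0.02 in mice 7 to 11, so mouse 10 remained the lowest while the value of mouse 11 moved towards 0. Without mouse 10 the means of mice 7, 8, 9 and 11, taken relative to those 4, were 0.07, 0.08, -0.26 and 0.12.

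The low values of mouse 10 were larger in short genes. The 37 genes with a shorter coding sequence averaged -0.56 in mouse 10 and 0.31 in mouse 8, against -0.22 and 0.05 for the 39 longer ones. The 38 genes with a lower GC content averaged 0.26 in mouse 7 and -0.01 in mouse 11, against 0.11 and 0.39 for the 38 others. The large and the small subunit had close means, which were 0.23 and 0.13 in mouse 7, 0.16 and 0.20 in mouse 8, -0.17 and -0.15 in mouse 9, -0.39 and -0.38 in mouse 10, and 0.18 and 0.21 in mouse 11. The median SD of log2 CPM between mice was 0.36 for the 76 genes and 0.30 for all genes tested. All 76 averaged at least 50 counts, as did 12619 of the 16318 genes tested, so the medians are not at like levels. Blood markers, whose summed RPKM was 108, 165, 59.0, 143 and 192 in mice 7 to 11, were lowest in mouse 9. Endothelial markers summed to 28.2, 27.5, 22.8, 24.0 and 42.0 RPKM, lowest in mice 9 and 10 and highest in mouse 11. Oligodendrocyte markers summed to 821, 808, 585, 725 and 723, high in mice 7 and 8 and lowest in mouse 9. Other marker sets had other orders of the mice. Markers of cerebellar granule cells summed to 3.29, 0.215, 0.0659, 11.1 and 0.282 RPKM in mice 7 to 11, highest in mouse 10. Astrocyte markers summed to 670, 748, 705, 722 and 621, and choroid plexus markers to 432, 338, 414, 364 and 524. Neuronal markers summed to 993, 929, 1026, 983 and 1059, and microglial markers to 122, 131, 122, 130 and 118. The part of these cell types in the differences between mice was not tested.

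The most even genes after Rpl22 and Rps3 were Rps15a, Rpl7a and Rpl15. Rps15a had 11.8, 15.1, 14.3, 13.0 and 12.8 RPKM in mice 7 to 11. Rpl7a had 51.7, 46.3, 44.3, 39.8 and 47.2, and Rpl15, which lies deep in the large subunit, had 32.6, 31.8, 29.5, 31.2 and 24.3. The SD of log2 CPM over the mice was 0.09 for Rpl22, 0.10 for Rps3, 0.13 for Rps15a, 0.14 for Rpl7a and 0.15 for Rpl15. The coefficient of variation of the RPKM over the mice ran from 5.80% for Rpl22 to 60.5% for Rpl7, with a median of 24.4%.

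Genes for which mutations cause Diamond-Blackfan anaemia in humans, a failure of red cell production, numbered 18 in the list used. With the implied lengths, Rps26 was the highest of them, at 113 RPKM and rank 10 of the 76, and Rps19 the lowest, at 4.35 RPKM and rank 76. The place of Rps19 rested on its long implied length. Over transcript length the lowest of the 76 was Rpl35, also in this list, at 6.51 RPKM. Rps27 had 62.3, 72.7, 35.0, 36.7 and 68.4 RPKM in mice 7 to 11, low in mice 9 and 10, with an unadjusted p of 0.0498 in the edgeR fit. Rps24 averaged 41.1 ± 12.8, Rps7 57.7 ± 7.57 and Rpl27 18.7 ± 2.04.

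Canonical ribosomal genes with symbols outside the rule are given for comparison. Rps3a1, the main S3a gene, had 80.9, 46.0, 37.0, 37.8 and 23.9 RPKM in mice 7 to 11, in the order seen for Rps4x and Rpl4, with mouse 7 high and mouse 11 low. Fau, which encodes S30 fused to a ubiquitin-like protein, had 43.6, 47.6, 30.8, 37.4 and 73.6, highest in mouse 11. Rack1, the scaffold protein of the small subunit, was even at 29.4 ± 1.52 RPKM (SD, n = 5). Rps27rt, a retrogene copy of Rps27, was listed at 0 in every library. Among the 7 of these genes that were tested 1 (Rps3a1) had an unadjusted p under 0.05 in the edgeR fit, against 4.99% of all genes, and 0 passed after adjustment.

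Paralogues were lower than their partners in every mouse (8 pairs, exact two-sided sign-flip test p = 0.0625 for each pair, adjusted p = 0.0625 over the 8, the smallest that 5 mice can give). Log2 ratios are of RPKM + 1. Rpl10l, which in mice serves male germ cells, had 0 counts in all 5 libraries. With 3 counts per library as the floor, it was at least 196-fold lower than Rpl10, which averaged 44.2 ± 8.22 RPKM. Rpl3l, the form of striated muscle, had 4, 7, 4, 6 and 3 counts in mice 7 to 11, or 0.183 ± 0.0699 RPKM, against 69.1 ± 18.1 for Rpl3 (log2 ratio -5.86 ± 0.337). Rpl39l, another gene of male germ cells, had 0, 3, 1, 0 and 0 counts in mice 7 to 11, against 8.17 ± 3.34 RPKM for Rpl39.

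The other 5 paralogues had reads in every mouse. Rps27l, a p53 target in human cells, had 4.65, 9.95, 9.39, 6.95 and 12.8 RPKM in mice 7 to 11, against 62.3, 72.7, 35.0, 36.7 and 68.4 for Rps27, and the log2 ratio was -2.52 ± 0.637. Rpl22l1 averaged 4.37 ± 1.25 RPKM against 28.2 ± 1.64 for Rpl22 (log2 ratio -2.48 ± 0.327), and Rpl36al 3.46 ± 1.59 against 16.4 ± 4.03 for the X-linked Rpl36a (-2.01 ± 0.340). Over transcript length, the log2 ratio Rpl22l1 over Rpl22 was -5.06 and the log2 ratio Rpl36al over Rpl36a was -3.73, so both depended on the length used. Rps4l, annotated as a transcribed processed pseudogene, had 9.27, 7.03, 8.19, 8.79 and 13.9 RPKM against 70.8, 51.2, 38.1, 38.5 and 24.8 for Rps4x, so the log2 ratio ran from -2.80 in mouse 7 to -0.79 in mouse 11. Rpl7l1, which acts in ribosome assembly, had 13.9, 14.5, 13.3, 13.5 and 10.1 RPKM against 43.2, 19.9, 17.6, 14.9 and 10.4 for Rpl7. The log2 ratio Rpl7l1 over Rpl7 was -0.51 ± 0.615, and -0.24 without mouse 7, in which Rpl7 was high. Over transcript length it was -1.67.

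**Figure D4:**
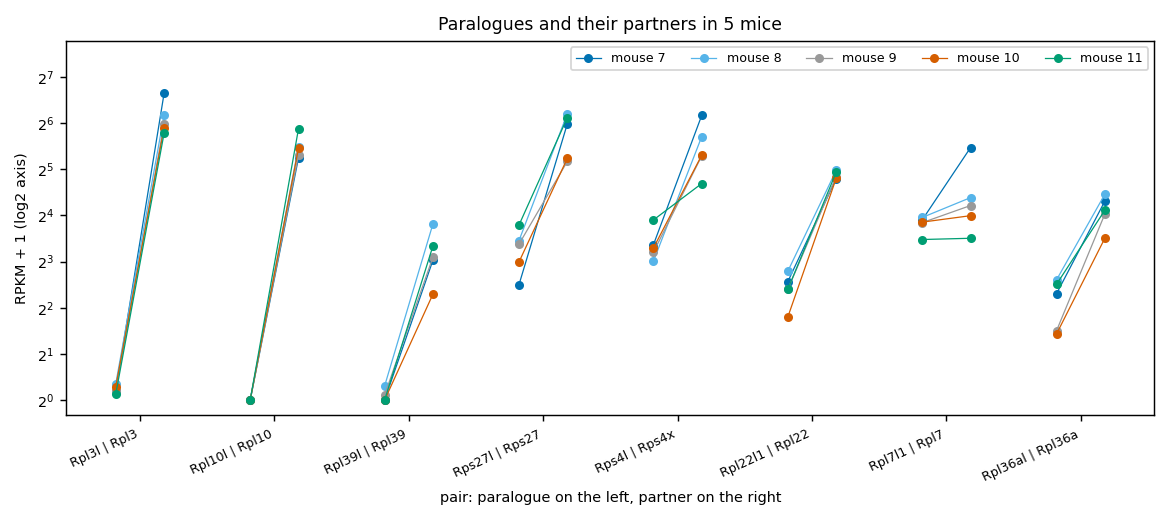
RPKM + 1 (log2 axis) of each paralogue (left of each pair) and its partner (right), with a line for each of the 5 mice. All lines climb from paralogue to partner, and the line of Rpl7l1 and Rpl7 is nearly flat in mouse 11.

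Shared sequence limits what these counts measure. Of the coding sequence cut into windows of 50 bases, a median of 92.3% per gene was also found in transcripts of other genes in M21, pseudogenes included. In 28 of the 76 genes every window was shared, and in 11 under 50%. The 11 genes averaged higher in counts: their median was 90.7 CPM, against 46.1 CPM for the 65 others, with median coding lengths of 474 and 453 bases. Per transcript length the medians were 137 and 62.4 RPKM. The Spearman correlation between the shared percentage and the CPM was -0.28 over the 76 genes, a weak relation. The median level was thus lower where the sequence is shared, and the part that discarded or misassigned reads play in it was not tested, since the treatment of multiply mapped reads is not given in the sources used here.

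Reads were counted on pseudogenes as well. A total of 845 pseudogenes in the table share at least 1 such window with one of the 80 genes; 507 had at least 1 count and 16 a mean count of at least 10. Together they held 2.61% ± 0.0984 of the ribosomal protein counts (SD, n = 5). The pseudogene Gm11478, which shares most windows with Rpl13a, had 528, 533, 401, 427 and 980 counts in mice 7 to 11, and peaked in mouse 11, as did Rpl13a itself (109, 139, 107, 109 and 198 RPKM). Gm12090, matched to Rpl7, had 74, 29, 18, 23 and 10 counts, again high in mouse 7 and low in mouse 11. Gm8292, matched to Rps24, had 230, 236, 170, 111 and 173 counts. Gm11599, matched to Rps2, had 59 counts in mouse 11 and 0 or 1 in the others. With such counts added, a choice made after seeing the data, the mean RPKM of Rps24 was 58.9, against 41.1 without them. It was 28.3 against 23.0 for Rpl29 and 50.3 against 45.8 for Rpl7a.

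Rpl24 was the only canonical gene of the 80 under the count filter, with 17, 6, 15, 6 and 3 counts in mice 7 to 11. Its encoded protein sits at the interface of the subunits. All of its coding windows of 50 bases were shared, and 47.0% of its exon bases overlap Gm28037 on the same strand. Whether its reads were assigned elsewhere or discarded was not tested.

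Lists of genes with related functions were set beside the ribosomal protein genes, whose median deviations were 0.15, 0.13, -0.13, -0.33 and 0.19 in mice 7 to 11. The 20 other genes of TOP mRNAs, mostly translation factors, had medians of 0.08, 0.05, -0.03, -0.10 and -0.05 in mice 7 to 11, and 2 of the 20 had an unadjusted p under 0.05 in the edgeR fit (Eif3e and Npm1, named after their values were seen), against 4.99% of all genes. The elongation factor Eef1a1 was the highest of them at 418 ± 83.7 RPKM and the non-coding host gene Snhg1 the lowest at 2.07 ± 0.199. The 32 genes of ribosome biogenesis had medians between -0.04 and 0.05, from 30.3 ± 5.34 RPKM for Rrn3, a factor of RNA polymerase I, to 1.86 ± 0.607 for Nmd3, the export adaptor of the large subunit. The 74 tested genes of the mitochondrial ribosome had medians of -0.02, 0.01, -0.07, -0.06 and 0.14. In both of these lists 0 genes had an unadjusted p under 0.05 in the edgeR fit, against 4.99% of all genes. Among the 76 ribosomal protein genes there were 14, and the difference between lists was not tested.

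**Figure D5:**
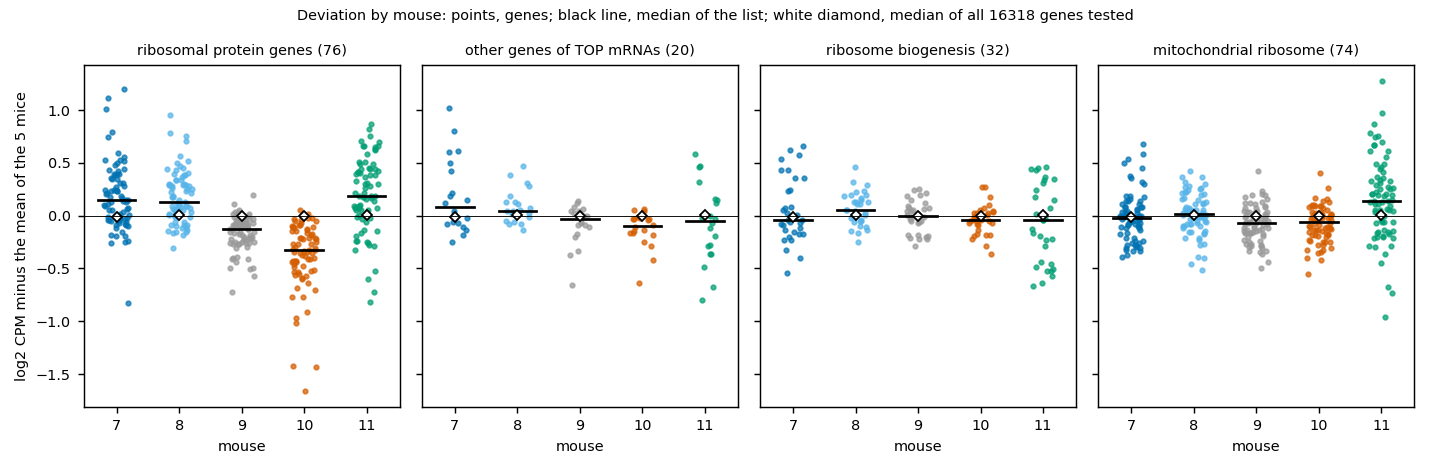
Deviation of log2 CPM from the gene's mean over the mice for the 76 ribosomal protein genes, 20 other genes of TOP mRNAs, 32 genes of ribosome biogenesis and 74 of the mitochondrial ribosome, by mouse. Lines mark the median of each list and white diamonds that of all 16318 genes tested. The ribosomal protein median is lowest in mouse 10, at -0.33.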

How the data were processed

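The authors deposited a table of whole-number counts, with 47729 Ensembl genes and a column for each of the 5 libraries. The submitters' processing notes name the tools featureCounts 1.4.6-p4, STAR 2.4.1d and CASAVA 1.7 and the build GRCm38. The annotation release, the strand setting and the treatment of multiply mapped reads are not given in the sources used here. The authors also deposited RPKM values, but among 12729 genes checked 0 had values within 1% of those given by each library's own total, and 12729 matched when the 5 totals were taken in turn down the table. RPKM were therefore recomputed with own totals and the gene lengths implied by the deposited values, which were within 1% of the M21 exon length for 52 of the 79 members that had one.

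The ribosomal protein genes and the other gene lists were chosen with earlier results of these data known. Genes named with full values are the 10 highest and 10 lowest by mean RPKM, the 5 most and 5 least variable, those in lists of roles and paralogues, and those with 1 mouse far from the rest; some genes that these rules give are not reported here. Symbols came from GENCODE M21 (47224 genes matched). Variation between mice was tested with edgeR 4.0.16 (TMM scaling, intercept only, mean count of at least 10) and limma 3.58.1, with Benjamini-Hochberg adjustment. The code was also run on simulated counts with the same dispersion for every gene, which does not gauge its power in these data. Log2 ratios used a pseudocount of 1 and log2 CPM a prior count of 1. GC and length trends, along mean transcript GC and implied gene length, were removed by loess with a span of 0.5. DESeq2 1.42.0 size factors, other filters and lengths, added pseudogene counts and leaving out each mouse were tried. Promoters are RefSeq's.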

Additional observations from a re-analysis of the deposited data

Results flagged for a closer look

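Of the 76 ribosomal protein genes that were tested, 6 had 1 mouse far from the other 4 by Dixon's criterion, 5 of which are given here. Chance flags about 1 in 20 groups. No share over all genes is set beside this count, so it does not mark these genes out. In 4 of the 6 the high mouse was mouse 11, which was highest for 35.8% of all genes tested. In mouse 7, Rpl5 had 16.5 RPKM, with the others between 4.88 and 7.79, and Rpl23a had 48.9 RPKM, with the others between 27.9 and 33.7. In mouse 11, Rps9 had 45.2 RPKM, Rpl18 82.7 and Rps10 27.1, each above all other mice. The log2 ratio of Rpl7l1 to Rpl7 was -1.57 in mouse 7 and between -0.43 and -0.03 in the other 4.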

How the results depend on the processing

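No paired analysis was possible because the labels give a single group. The count of ribosomal protein genes called variable was 0 under each other setting tried except with no filter beyond 1 count, where it was 6. The count at an unadjusted p under 0.05, 14 as reported, was 23 with no filter, 27 after removal of the GC and length trends, and from 5 (without mouse 10) to 32 (without mouse 11) when mice were left out. It was 13 or 14 under the other scalings, a mean count of at least 50, the fit without the robust option and added pseudogene counts. The log2 difference of large and small subunit levels, -0.50 as reported, was -0.24 as a difference of means over genes, -0.18 over the M21 exon length and -0.017 over transcript length. The cause of these shifts was not tested. The share of counts stayed between 0.469 and 0.507% when mice were left out, and the ratio of Rpl7l1 to Rpl7 between -0.63 and -0.24. With a pseudocount of 0.1, the log2 ratio Rpl10l over Rpl10 was -8.77 in place of -5.48 and the log2 ratio Rpl39l over Rpl39 was -5.76 in place of -3.03. Mean RPKM moved by more than 1 SD for 17 of 76 genes with the M21 exon length and for 58 with transcript length. It did so for 4 with window-matched pseudogene counts added and for 0 with the deposited RPKM. Leaving out 1 of 5 mice cannot move a mean by more than 1 SD, so that setting is not informative by this measure. Window-matched pseudogene counts and transcript length were chosen after seeing the data. At low counts, and where sequence is shared with copies, the counts limit what a level can show.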
